A study of Mus musculus with 9 samples.

Results

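Autophagy and lysosome genes were followed in the heart apex of mice given a vector for the cytokine oncostatin M. The set was 39 genes listed by symbol for their roles in starting autophagy, building the autophagosome, choosing cargo, fusing with the lysosome and degrading what is delivered. All 39 had a row in the deposited count table, out of 13192 named genes, and all 39 passed the filter on low counts, which removed 0 genes. The smallest count of any of them in any library was 114.

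The hearts came from male wild-type mice of the C57BL/6J strain. At 10 weeks of age the mice received 1e+11 viral particles of an adeno-associated virus in the right gastrocnemius, a leg muscle, and the heart was taken 12 weeks later. The AAV-Null group (n = 4) received the control vector and the AAV-Osm group (n = 5) the vector for oncostatin M, a cytokine of the interleukin-6 family, in a study of cardiac dysfunction, muscle wasting and fibrosis. The design text gives 5 submitted samples per group, while the series holds 4 AAV-Null samples. The labels give neither the vector's serotype nor the promoter that drives the gene. They also do not state that every library is a separate mouse, so each p-value reflects only how these 9 samples spread, which may be technical. The transcript of the delivered gene was not analysed here and could not check the labels. Total counts ran from 11841106 to 30625134 per library. Summed markers of cardiomyocytes (8 of 8 listed were in the table) were between 78575 and 103460.0 CPM among AAV-Null and between 78442 and 104977 CPM among AAV-Osm libraries. AAV-Null 4 was the highest or lowest library for 38.96% of all genes and AAV-Osm 5 for 35.5%, against 10.3% to 24.8% for each other library, and each log2 fold change between the groups was also computed without both.

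Autophagy encloses cytoplasm in a double membrane and delivers it to lysosomes for breakdown. The ULK kinases start the process, a lipid kinase complex around PIK3C3 marks the membrane, and a pair of ubiquitin-like conjugation systems attach ATG8 proteins such as LC3 to it. Cargo receptors bind both ubiquitin-tagged or mitochondrial cargo and the ATG8 proteins, and lysosomal proteases and glycosidases degrade the contents. In heart muscle the pathway is known for the turnover of mitochondria and damaged proteins, and inherited loss of LAMP2 or of acid alpha-glucosidase, the product of Gaa, causes cardiomyopathy. TFEB, a transcription factor held in the cytoplasm by mTORC1, activates many lysosomal genes through E-box elements. Transcript counts do not measure the flow of material through the pathway.

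The sequence that TFEB and its relatives read was looked for in the promoters of the set, because it is the element by which lysosomal genes are known to be regulated together. RefSeq promoters (GRCm38.p6, the same assembly as mm10), each running from 250 bases before the start to 50 after it, were matched by symbol for 31 of the 39 genes. The palindrome CACGTG, the E-box core, was in the promoters of 9 of the 31 (29%), against 11.8% of the 10011 tested genes with a promoter. Those 9 were Atg14, Atg3, Atg5, Atg7, Bnip3, Ctsd, Ctsl, Gaa and Lamp1. The match of Atg7 (chr6:114670952-114670981) belongs to a RefSeq start well inside the gene, whose span in the count table begins at 114643097. The longer form TCACGTGA, the core of the element known as CLEAR, contains the palindrome and was in 2 of 31 promoters (Atg3 and Ctsd), 6.45% against 2.15%. Lamp1, which encodes an abundant glycoprotein of the lysosomal membrane, had 4 copies of CACGTG in the 80 bases before its RefSeq start, which lies inside the gene's span in the count table. The sequences that follow, 5′ to 3′ with the E-box in capitals, are that stretch of Lamp1 and 30 bases around the CLEAR core of Ctsd and Atg3 and around the E-box of Gaa.
Lamp1 (chr8:13159081-13159160, plus strand): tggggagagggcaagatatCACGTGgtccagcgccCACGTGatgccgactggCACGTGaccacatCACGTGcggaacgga
Ctsd (chr7:142387908-142387937, minus strand): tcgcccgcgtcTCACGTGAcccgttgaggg
Atg3 (chr16:45158746-45158775, plus strand): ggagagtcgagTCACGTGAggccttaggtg
Gaa (chr11:119267811-119267840, plus strand): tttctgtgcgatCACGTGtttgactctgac
In Ctsd and Atg3 the capitals cover all 8 letters of TCACGTGA. All searches read both strands, and a match describes letters only.

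Oncostatin M signals through gp130 receptors and the transcription factor STAT3, so the STAT palindrome TTCNNNGAA was searched in the same windows. It was in 4 of 31 promoters (12.9%, against 8.33% of tested genes), those of Gabarap, Gabarapl1, Nbr1 and Wipi1. The FoxO site GTAAACA was in 0 of 31, against 3.06%. The matches are shown for the ATG8 genes Gabarap and Gabarapl1, with the 9 letters of the palindrome in capitals.
Gabarap (chr11:69991304-69991333, plus strand): ccaacgtaatTTCCGAGAActgcagaacta
Gabarapl1 (chr6:129532968-129532997, plus strand): tgttagagcaTTCTTTGAAttaacaaatta
The windows differ outside the palindrome, and 0 other members of the ATG8 family matched to a promoter held it.

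Levels between genes were compared as CPM (counts scaled to the library's total and its TMM factor) per kilobase of the exon length in the table. By this measure 36 of the 39 genes lay above the 50th percentile of the 13192 genes and 14 above the 90th, and the median member stood at the 75.6th percentile. Map1lc3a, the LC3A gene, was the most abundant at 981 ± 263 CPM per kilobase (SD over 9 libraries), followed by Ctsd, the aspartic protease cathepsin D, at 806 ± 92.8. Map1lc3a was above Ctsd in 8 of 9 libraries and their ranges overlapped, so their order was not separated by the spread. Ctsd was above Gabarap (321 ± 46.1) in 9 of 9 libraries with no overlap of the ranges. The ranges of Gabarap and Sqstm1 (248 ± 38.5) overlapped, as did those of Sqstm1 and Lamp1 (207 ± 29.7), while Lamp1 lay above Map1lc3b (120.5 ± 16.5) with no overlap. Further down the order, neighbours overlapped except Optn (49.97 ± 8.77) and Gaa (31.7 ± 3.07). At the other end were the subunits of the lipid kinase complex Pik3c3 (3.90 ± 0.997), Pik3r4 (2.93 ± 0.478) and Atg14 (2.63 ± 0.298), whose ranges also overlapped in turn. The fourth gene of that complex, Becn1, was at 22.1 ± 3.56, and the initiation genes Atg13, Ulk1 and Ulk2 were at 13.9 ± 1.30, 7.78 ± 2.02 and 6.97 ± 1.22.

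**Figure D1:**
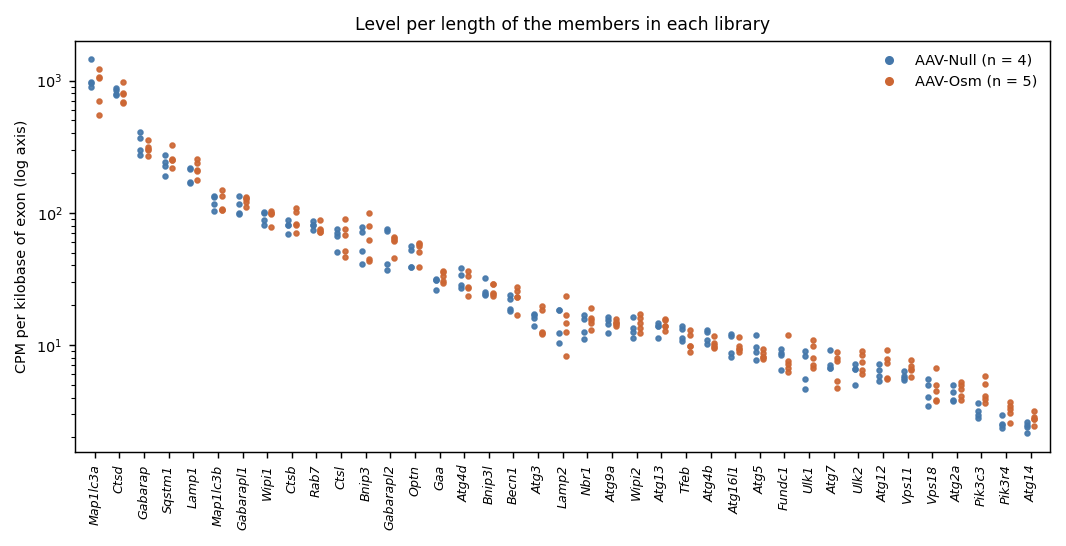
Level of each of the 39 genes in each library, in CPM per kilobase of exon on a log axis, ordered from high to low, with AAV-Null (n = 4) in blue and AAV-Osm (n = 5) in orange. Map1lc3a and Ctsd lie highest, Atg14 lowest, and the colours overlap in every gene.

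The comparison asked whether these transcripts differed 12 weeks after the vector for oncostatin M was given. None of the 39 genes passed. In edgeR's quasi-likelihood test 0 rose and 0 fell at an adjusted p under 0.05, where 0.121% of all genes tested were called (0.0834% higher and 0.0379% lower). At an unadjusted p under 0.05 there were 2 members, Pik3c3 and Pik3r4, both higher, which is 5.13% of the set against 5.97% of all genes (2.89% higher and 3.09% lower). DESeq2 and limma-voom with quality weights each called 0 members, against 0.402% and 1.29% of all genes. With quality weights 10 members had an unadjusted p under 0.05, against 25.2% of all genes. In 0 of 39 were the libraries of one group all above those of the other, against 2.28% of all genes (1.05% higher in AAV-Osm and 1.23% lower). In these bulk samples fewer cells of a type and less RNA per cell cannot be told apart.

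Log2 fold changes of AAV-Osm over AAV-Null ran from -0.23 (Map1lc3a) to 0.52 (Pik3c3). Their median was 0.089 against 0.0092 over all genes tested, and 25 of 39 (64.1%) were above 0, against 51.9% of all genes. With total counts as the only scaling 21 of 39 were above 0. The 95% interval of each gene, not adjusted for the number of genes, lay within a 2-fold change in either direction for 39 of 39 and within a 1.5-fold change for 33 of 39. Over all genes with a mean of at least 10 CPM those shares were 97.8% and 71.7%. The 6 whose interval reached beyond 1.5-fold were Ulk1, Pik3c3, Pik3r4, Map1lc3a, Bnip3 and Lamp2.

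**Figure D2:**
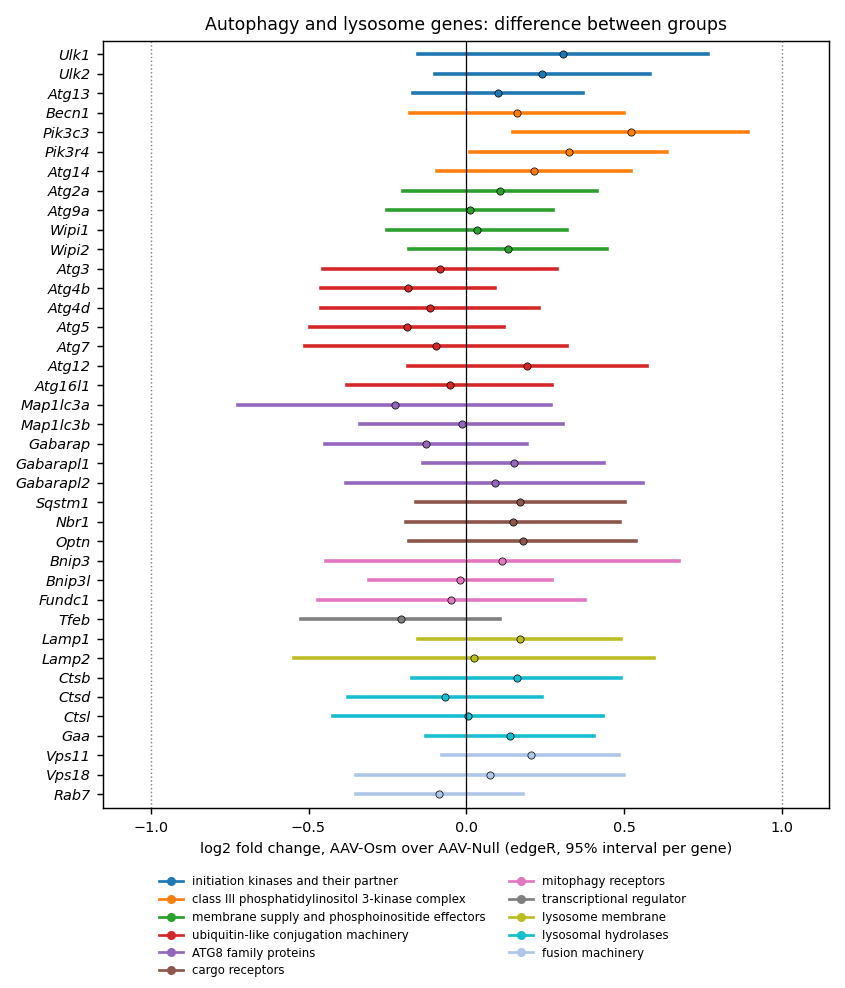
Log2 fold change of AAV-Osm over AAV-Null for each of the 39 genes (point) with its 95% interval from edgeR (line), coloured by role, with dotted lines at a 2-fold change. All intervals stay inside the dotted lines, and those of Pik3c3 and Pik3r4 lie above 0 before adjustment.

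The class III lipid kinase complex held the 2 members with the smallest p, Pik3c3 and Pik3r4. By p its other genes, Atg14 and Becn1, ranked 5 and 17 among the 39 members. Pik3c3 (chromosome 18, 30272896 to 30348120, plus strand, mm10) encodes VPS34, the catalytic subunit that makes phosphatidylinositol 3-phosphate. Pik3c3 was at 9.88, 9.18, 11.3 and 8.71 CPM in AAV-Null 1 to 4 and at 18.2, 12.7, 11.2, 12.1 and 15.6 CPM in AAV-Osm 1 to 5. Of the AAV-Osm libraries 4 lay above all AAV-Null libraries, and AAV-Osm 3 lay just under AAV-Null 3. AAV-Osm over AAV-Null gave a log2 value of 0.52 with an SE of 0.172 (adjusted p = 0.594, edgeR), with an interval of 0.15 to 0.89. The unadjusted p stayed under 0.05 in all 20 alternatives while the adjusted p ran from 0.0874 to 0.99994. Pik3r4 (chromosome 9, 105642995 to 105687655, plus strand) encodes VPS15, the regulatory kinase-like subunit that holds the complex together. Pik3r4 was at 12.03, 12.4, 14.3 and 11.5 CPM in AAV-Null 1 to 4 and at 16.9, 16.02, 18.01, 12.6 and 15.004 CPM in AAV-Osm 1 to 5. AAV-Osm 4 lay among the AAV-Null libraries and the other AAV-Osm libraries lay above them. On the log2 scale the difference was 0.32 with an SE of 0.145 (adjusted p = 0.802, edgeR), and the unadjusted p was under 0.05 in 11 of 20 alternatives.

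Atg14 (chromosome 14, 47540893 to 47568434, minus strand) encodes the subunit that directs this complex to autophagosome formation. Atg14 was at 7.42, 8.32, 8.52 and 8.999 CPM in AAV-Null 1 to 4 and at 9.49, 10.9, 9.55, 9.93 and 8.45 CPM in AAV-Osm 1 to 5. AAV-Osm 5 lay between AAV-Null libraries, and the other AAV-Osm libraries lay above all of them. The log2 fold change was 0.22 with an SE of 0.142 (adjusted p = 0.929, edgeR). Becn1 (chromosome 11, 101288267 to 101302267, minus strand), the Beclin 1 scaffold of the same complex and the most abundant of its genes per length, overlapped widely. Becn1 was at 37.8, 36.98, 48.6 and 45.5 CPM in AAV-Null 1 to 4 and at 55.5, 46.9, 46.6, 34.1 and 52.3 CPM in AAV-Osm 1 to 5. Its log2 fold change was 0.16 with an SE of 0.157 (adjusted p = 0.954, edgeR). The 4 genes of the complex thus had values of 0.16 to 0.52, all above 0, and 0 of 4 passed.

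**Figure D3:**
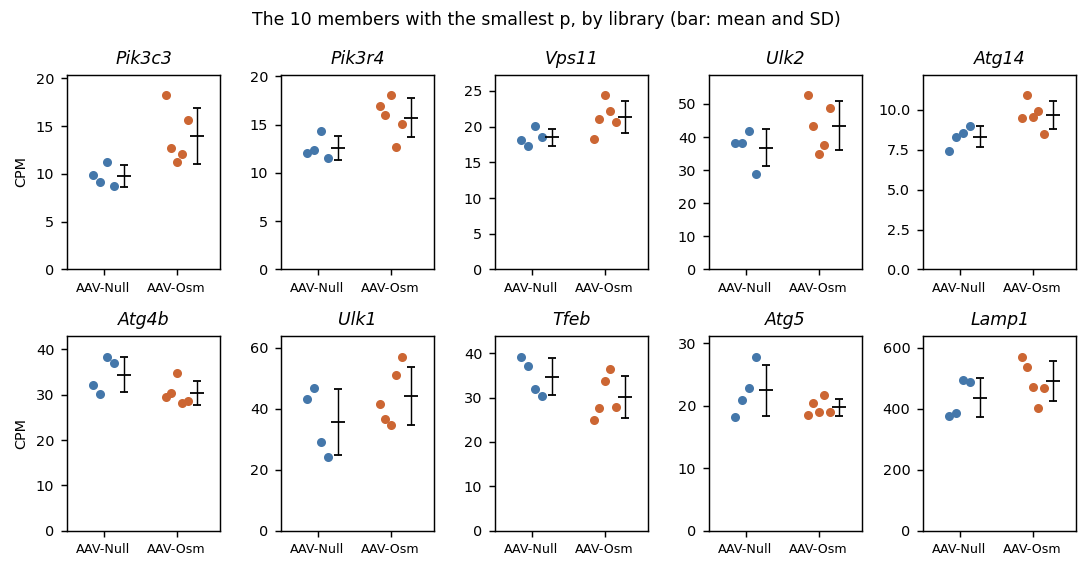
CPM in each library for the 10 members with the smallest p, each point a library and each bar the mean with SD, with every axis starting at 0. In each gene at least 1 AAV-Osm library lies within the range of the AAV-Null libraries.

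The initiation genes showed 0 of 3 past the threshold, with all 3 values above 0. Ulk1 (chromosome 5, 110784489 to 110810081, minus strand) encodes the main initiating kinase. Ulk1 was at 43.01, 46.6, 28.97 and 24.3 CPM in AAV-Null 1 to 4 and at 41.6, 36.5, 34.7, 51.2 and 57.02 CPM in AAV-Osm 1 to 5. AAV-Null 3 and AAV-Null 4 were the lowest of all 9, and AAV-Null 1 and 2 lay within the AAV-Osm range. AAV-Osm over AAV-Null gave a log2 value of 0.31 with an SE of 0.213 (adjusted p = 0.934, edgeR), and -0.020 once AAV-Null 3 and AAV-Null 4 were left out. Ulk2 (chromosome 11, 61775598 to 61855092, minus strand), its paralog, had AAV-Null 4 lowest. Ulk2 was at 38.3, 38.2, 41.8 and 28.95 CPM in AAV-Null 1 to 4 and at 52.6, 43.3, 34.99, 37.7 and 48.7 CPM in AAV-Osm 1 to 5. On the log2 scale the difference was 0.24 with an SE of 0.158 (adjusted p = 0.927, edgeR). Atg13 (chromosome 2, 91674612 to 91710592, minus strand), the adaptor of the ULK complex, was the most abundant of the group per length. Atg13 was at 52.2, 49.4, 49.3 and 40.5 CPM in AAV-Null 1 to 4 and at 45.9, 49.7, 56.1, 50.1 and 54.9 CPM in AAV-Osm 1 to 5. AAV-Null 4 was lowest and AAV-Osm 3 highest, and the log2 fold change was 0.10 with an SE of 0.125 (adjusted p = 0.967, edgeR).

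Genes for membrane supply and for reading the lipid mark had values near 0. Wipi1 (chromosome 11, 109573521 to 109611389, minus strand), whose product binds phosphatidylinositol 3-phosphate, was the most abundant of these per length. Wipi1 was at 185, 182, 161 and 148 CPM in AAV-Null 1 to 4 and at 141, 186, 179.7, 181 and 178 CPM in AAV-Osm 1 to 5. AAV-Osm 1 was the lowest of all libraries and the other AAV-Osm libraries sat with AAV-Null 1 and 2. Its log2 fold change was 0.034 with an SE of 0.132 (adjusted p = 0.988, edgeR). Wipi2, which recruits the conjugation machinery, had one of 0.13 with an SE of 0.146. Atg2a, a lipid transfer protein gene, had one of 0.11 with an SE of 0.143 and Atg9a, the scramblase carried by seed vesicles, one of 0.012 with an SE of 0.122. With total counts as the scaling the values of Wipi1 and Atg9a were below 0.

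The conjugation machinery had 6 of 7 values below 0 and 0 of 7 past the threshold. Atg4b (chromosome 1, 93755033 to 93789529, plus strand) encodes the protease that trims and recycles ATG8 proteins. Atg4b was at 32.2, 30.1, 38.4 and 36.97 CPM in AAV-Null 1 to 4 and at 29.5, 30.5, 34.7, 28.2 and 28.5 CPM in AAV-Osm 1 to 5. AAV-Null 3 and 4 were highest, and AAV-Osm 2 and 3 lay among the AAV-Null libraries. AAV-Osm over AAV-Null gave a log2 value of -0.18 with an SE of 0.127 (adjusted p = 0.934, edgeR). Atg5 (chromosome 10, 44268358 to 44364291, plus strand) encodes the acceptor of ATG12. Atg5 was at 18.2, 20.8, 22.9 and 27.8 CPM in AAV-Null 1 to 4 and at 18.5, 20.4, 18.97, 21.8 and 18.9 CPM in AAV-Osm 1 to 5. AAV-Null 4 was highest and AAV-Null 1 lowest, on either side of all AAV-Osm libraries, and the log2 fold change was -0.19 with an SE of 0.143 (adjusted p = 0.934, edgeR).

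Atg4d (chromosome 9, 21265285 to 21274837, plus strand), a further ATG4 protease gene, was the most abundant of the group per length. Atg4d was at 81.7, 85.7, 102 and 116 CPM in AAV-Null 1 to 4 and at 80.95, 101, 109, 82.6 and 71.4 CPM in AAV-Osm 1 to 5. AAV-Null 4 was highest and AAV-Osm 5 lowest, with the other libraries overlapping, and its log2 fold change was -0.11 with an SE of 0.160 (adjusted p = 0.973, edgeR). In the deposited exon positions 26.2% of its exon bases are shared with Kri1 on the other strand, and since the strand setting is not given its counts are uncertain. Atg3, the enzyme that passes ATG8 proteins to lipid, had a log2 fold change of -0.083 with an SE of 0.172. For Atg7, which activates both ubiquitin-like systems, it was -0.10 with an SE of 0.192, and for Atg16l1, which places the ATG12-ATG5 conjugate on the membrane, -0.053 with an SE of 0.151. Atg12, the ubiquitin-like modifier, was the only one above 0 at 0.19 with an SE of 0.176. Leaving out AAV-Null 4 and AAV-Osm 5 turned Atg4d, Atg7 and Atg16l1 above 0.

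Among the ATG8 genes 2 of 5 values were above 0 and 0 passed. Map1lc3a (chromosome 2, 155276364 to 155278073, plus strand) varied more between libraries than any other ATG8 gene. Map1lc3a was at 1000.1, 1018, 935 and 1509 CPM in AAV-Null 1 to 4 and at 728, 1106, 1084, 1272 and 577 CPM in AAV-Osm 1 to 5. AAV-Null 4 was the highest and AAV-Osm 5 the lowest of the 9. On the log2 scale the difference was -0.23 with an SE of 0.230 (adjusted p = 0.955, edgeR), and without those libraries it was 0.089. Map1lc3b, the LC3B gene usually followed as a marker of autophagosomes, was at 207 ± 24.2 CPM (SD, n = 4) in AAV-Null and 205 ± 33.9 CPM (SD, n = 5) in AAV-Osm hearts, a log2 fold change of -0.015 with an SE of 0.149. Gabarap had one of -0.13 with an SE of 0.148, Gabarapl1, a FoxO target in muscle, one of 0.15 with an SE of 0.133 and Gabarapl2 one of 0.089 with an SE of 0.217.

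The balance within the ATG8 family and other pairs was compared by 8 ratios of levels per length. Gabarapl1 over Gabarap was 0.334 ± 0.0218 (SD, n = 4) in AAV-Null and 0.404 ± 0.0369 (SD, n = 5) in AAV-Osm hearts, and only AAV-Null 1 (0.366) lay within the AAV-Osm range. The exact two-sided permutation p over all regroupings of the libraries was 0.0317, where 0.00794 is the smallest possible, on the log2 ratio, and 0.254 adjusted over the 8 ratios. The other ratios had exact permutation p of 0.333 to 0.984. These comprised Map1lc3a over Map1lc3b, Gabarapl1 over Gabarapl2, Ulk1 over Ulk2, Bnip3 over Bnip3l, Ctsd and Ctsl over Ctsb, and Lamp1 over Lamp2. The ATG8 genes have close relatives and processed copies in the genome, and how reads with several matches were counted is not given in the sources used here.

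Cargo receptors had values of 0.15 to 0.18 with 0 of 3 past the threshold. Sqstm1 (chromosome 11, 50200152 to 50210820, minus strand) encodes p62, which binds ubiquitin and LC3 and is itself degraded by autophagy. Sqstm1 was at 551, 489, 461 and 383 CPM in AAV-Null 1 to 4 and at 509, 445, 518, 512 and 666 CPM in AAV-Osm 1 to 5. AAV-Osm 5 was highest and AAV-Null 4 lowest, and the other libraries overlapped. Its log2 fold change was 0.17 with an SE of 0.154 (adjusted p = 0.947, edgeR), and without those libraries it was -0.012. Nbr1, a p62 relative, had a log2 fold change of 0.15 with an SE of 0.158 and Optn, optineurin, a receptor for ubiquitin-tagged mitochondria, one of 0.18 with an SE of 0.167. Nbr1, like Sqstm1, was below 0 (-0.028) without AAV-Null 4 and AAV-Osm 5.

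Of the mitophagy receptor genes 0 of 3 passed. Bnip3 (chromosome 7, 138890836 to 138909506, minus strand), a hypoxia-induced receptor of the outer mitochondrial membrane, spread widely in both groups. Bnip3 was at 127, 137, 90.99 and 72.4 CPM in AAV-Null 1 to 4 and at 109.7, 75.7, 78.9, 139.9 and 174 CPM in AAV-Osm 1 to 5. AAV-Osm 5 was highest and AAV-Null 4 lowest. AAV-Osm over AAV-Null gave a log2 value of 0.11 with an SE of 0.259 (adjusted p = 0.983, edgeR), and without both of these libraries it was -0.23. Bnip3l, also called NIX and known for clearing mitochondria from red cell precursors, had a log2 fold change of -0.019 with an SE of 0.135, with AAV-Null 4 highest at 104 CPM, and one of 0.13 without AAV-Null 4 and AAV-Osm 5. Alas2, the erythroid gene of haem synthesis and the sole red cell marker of 5 listed in the table, was between 109.7 and 216 CPM among AAV-Null and between 83.9 and 228 CPM among AAV-Osm libraries and was 216 CPM in AAV-Null 4 and highest in AAV-Osm 1. Its part in the Bnip3l value was not tested. Fundc1, a further outer membrane receptor gene, had a log2 fold change of -0.048 with an SE of 0.196. AAV-Osm 5 (23.1 CPM) lay far above the other AAV-Osm libraries (12.2 to 14.8 CPM). Without that library the value of Fundc1 was -0.24, and without AAV-Null 4 as well it was -0.34 (adjusted p = 0.540, edgeR).

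Tfeb (chromosome 17, 47737037 to 47792416, plus strand), the regulator of lysosomal genes, had the lowest log2 fold change of the 39 genes after Map1lc3a. Tfeb was at 39.2, 37.2, 31.96 and 30.4 CPM in AAV-Null 1 to 4 and at 24.95, 27.7, 33.6, 36.4 and 27.8 CPM in AAV-Osm 1 to 5. AAV-Osm 3 and 4 lay within the AAV-Null range and the other AAV-Osm libraries lay below it. The log2 fold change was -0.21 with an SE of 0.146 (adjusted p = 0.934, edgeR), an interval of -0.52 to 0.11. The 9 genes with CACGTG in the promoter had values on both sides of 0. Those above 0 were Atg14 (0.22), Lamp1 (0.17), Gaa (0.14), Bnip3 (0.11) and Ctsl (0.0045), and those below 0 were Atg3 (-0.083), Atg5 (-0.19), Atg7 (-0.10) and Ctsd (-0.068).

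At the lysosome membrane 0 of 2 genes passed. Lamp1 (chromosome 8, 13159135 to 13175338, plus strand), whose promoter stretch is shown above, had AAV-Osm 1 and 2 above all AAV-Null libraries. Lamp1 was at 377, 385, 495 and 486 CPM in AAV-Null 1 to 4 and at 570.1, 537, 471, 402 and 468 CPM in AAV-Osm 1 to 5. AAV-Osm 3, 4 and 5 lay within the AAV-Null range, and the log2 fold change was 0.17 with an SE of 0.149 (adjusted p = 0.947, edgeR). Lamp2 was at 75.5 ± 21.04 CPM (SD, n = 4) in AAV-Null and 76.7 ± 28.6 CPM (SD, n = 5) in AAV-Osm hearts, a log2 fold change of 0.024 with an SE of 0.264. It had the widest spread of the 39 genes, 2.86-fold from AAV-Osm 3 (41.7 CPM) to AAV-Osm 5 (119 CPM), both in the same group. The value of Lamp2 was -0.33 without AAV-Null 4 and AAV-Osm 5, -0.28 without AAV-Null 3 and AAV-Null 4 and -0.41 with quality weights, and 0 of these passed.

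The hydrolase genes had 0 of 4 past the threshold. Ctsd (chromosome 7, 142375916 to 142387870, minus strand) was the most abundant of them per length. Ctsd was at 1659, 1726, 1553 and 1527 CPM in AAV-Null 1 to 4 and at 1316, 1351, 1579, 1911 and 1552 CPM in AAV-Osm 1 to 5. AAV-Osm libraries lay on both sides of the AAV-Null range, and the log2 fold change was -0.068 with an SE of 0.142 (adjusted p = 0.983, edgeR). The cysteine protease genes Ctsb and Ctsl had log2 fold changes of 0.16 with an SE of 0.153 and 0.0045 with an SE of 0.198, and 16.3% of the exon bases of Ctsb are shared with Fdft1 on the other strand. Without AAV-Null 4 and AAV-Osm 5 the value of Ctsl was -0.24. Gaa, which degrades lysosomal glycogen, was at 114 ± 9.65 CPM (SD, n = 4) in AAV-Null and 125 ± 11.4 CPM (SD, n = 5) in AAV-Osm hearts, a log2 fold change of 0.14 with an SE of 0.124. Lysosomal proteases are abundant in macrophages, whose summed markers (9 of 9 in the table) were between 442 and 941 CPM among AAV-Null and between 467 and 662 CPM among AAV-Osm libraries, with AAV-Null 4 highest. The exact permutation p of those sums was 0.524, and their part in the protease values was not tested.

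Fusion genes also had 0 of 3 past the threshold. Vps11 (chromosome 9, 44348105 to 44361670, minus strand) encodes a core subunit of the tethers that join autophagosomes and endosomes to lysosomes. Vps11 was at 18.05, 17.2, 20.1 and 18.5 CPM in AAV-Null 1 to 4 and at 18.2, 21.03, 24.4, 22.2 and 20.7 CPM in AAV-Osm 1 to 5. AAV-Osm 1 lay among the AAV-Null libraries and the others lay above them. On the log2 scale the difference was 0.20 with an SE of 0.129 (adjusted p = 0.924, edgeR). Vps18, its partner, had a log2 fold change of 0.075 with an SE of 0.197. Rab7 (chromosome 6, 87999106 to 88045270, minus strand), the GTPase of late endosomes and the most abundant of the group per length, varied least of all members, 1.24-fold between its lowest and highest library. Rab7 was at 210.1, 214, 195 and 228 CPM in AAV-Null 1 to 4 and at 193, 188, 188, 196 and 233 CPM in AAV-Osm 1 to 5. AAV-Osm 5 was the highest of the 9, AAV-Osm 4 lay just above the lowest AAV-Null library and AAV-Osm 1, 2 and 3 lay below the AAV-Null range. The log2 fold change was -0.086 with an SE of 0.122 (adjusted p = 0.973, edgeR).

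At the median member most of the variation lay between libraries of the same group. The group accounted for a median of 11.1% of the variance of log2 CPM over the 39 genes, against 6.96% over all genes tested. The share was over 40% in 4 genes, Pik3c3, Pik3r4, Atg14 and Vps11. How many of all genes tested were over 40% was not counted, so this count does not set the members apart. AAV-Null 4 was the highest or lowest of the 9 libraries for 20 of 39 genes (51.3%, against 38.96% of all genes), and AAV-Osm 5 for 13 of 39 (33.3%, against 35.5%). Ulk1, Map1lc3b, Sqstm1, Nbr1 and Bnip3 were lowest in AAV-Null 4 and highest in AAV-Osm 5, and Map1lc3a, Atg4d, Atg7 and Bnip3l were the reverse. With AAV-Null 4 and AAV-Osm 5 both left out 0 members passed, and Fundc1 and Pik3c3 had an unadjusted p under 0.05, as did 8.83% of all genes. With AAV-Null 3 and AAV-Null 4 left out 0 members passed, and Gabarapl1, Gabarapl2, Optn and Pik3c3 had such a p, as did 9.99% of all genes. Only AAV-Null 1 and AAV-Null 2 then remained as controls, the most alike of all pairs of libraries (chi-square per degree of freedom 6.52). The p-values of that alternative therefore rest on a small control spread.

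**Figure D4:**
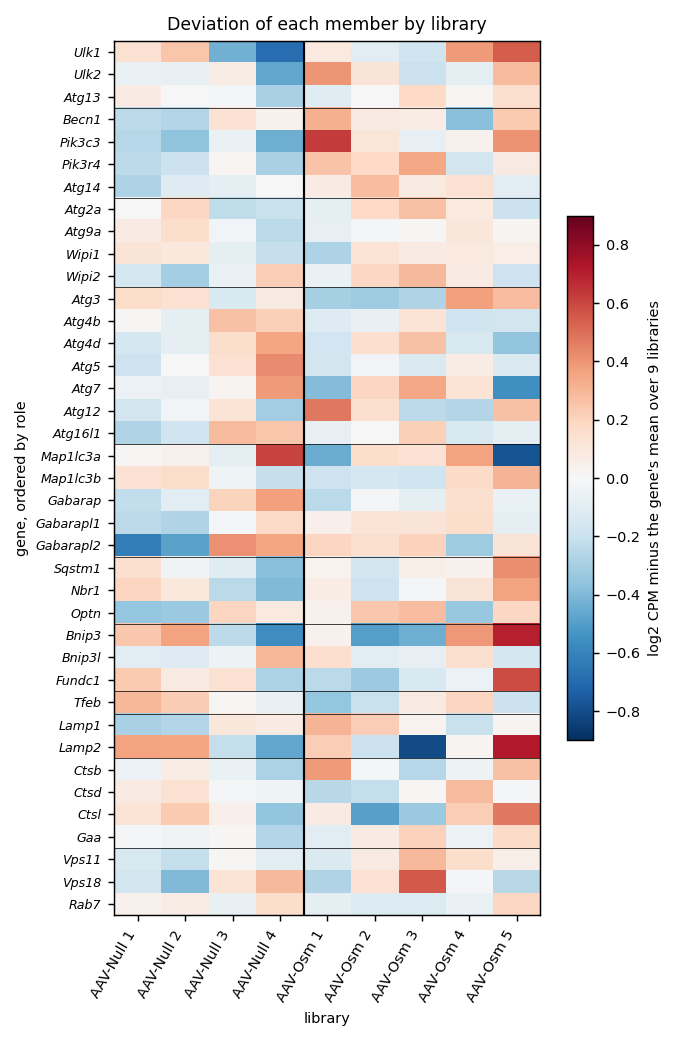
Log2 CPM of each gene minus its mean over the 9 libraries, by library, with genes ordered by role and the black vertical line between AAV-Null and AAV-Osm. The deepest colours are Lamp2 in AAV-Osm 3 (-0.80), Map1lc3a in AAV-Osm 5 (-0.78), Lamp2 in AAV-Osm 5 (0.71) and Bnip3 in AAV-Osm 5 (0.70), and Map1lc3a and Map1lc3b have opposite colours in AAV-Null 4 and AAV-Osm 5.

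Other genes of the pathway were taken from 7 lists by known role, none of them in the set above. Of 157 such genes 153 were in the table, and 0 passed in edgeR. At an unadjusted p under 0.05 there were 4 (2.61%, against 5.97% of all genes), 3 higher and 1 lower. The groups did not overlap for 5, all higher in AAV-Osm (3.27%, against 2.28% of all genes in either direction and 1.05% higher). Medians of the lists ran from -0.017 for 16 subunits of the V-ATPase, the proton pump that acidifies lysosomes, to 0.14 for 25 further core autophagy genes.

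Npc1 (chromosome 18, 12189694 to 12236386, minus strand), the lysosomal cholesterol exporter, had the smallest p of these. Npc1 was at 20.6, 20.6, 22.2 and 21.7 CPM in AAV-Null 1 to 4 and at 32.7, 33.5, 29.1, 24.1 and 30.3 CPM in AAV-Osm 1 to 5. All 5 AAV-Osm libraries lay above all 4 AAV-Null libraries. Its log2 fold change was 0.50 with an SE of 0.130 (adjusted p = 0.442, edgeR). The unadjusted p was under 0.05 in all 20 alternatives, and limma-voom with quality weights gave an adjusted p of 0.0259. Npc1 was the only one of the 153 genes past the threshold in that alternative, in which 1.29% of all genes were called. Gnptab, which makes the mannose 6-phosphate tag of lysosomal enzymes, had a log2 fold change of 0.26 with an SE of 0.164, and Psap, the prosaposin gene and the most abundant of that list per length, one of 0.090 with an SE of 0.122.

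Among further fusion genes, Vps33a, a subunit of the same tethers as Vps11, had a log2 fold change of 0.37 with an SE of 0.150 (adjusted p = 0.769, edgeR). Vps39, which joins the core to lysosomes, had one of 0.21 with an SE of 0.120 with no overlap of the groups, Vac14, a scaffold of the PIKfyve lipid kinase, one of 0.24 with an SE of 0.133 and Vti1b, a SNARE gene, one of 0.16 with an SE of 0.253. In the core autophagy list Ambra1, a Beclin 1 regulator, had one of 0.34 with an SE of 0.187, Tbc1d5, a Rab7 GTPase-activating protein gene, one of 0.20 with an SE of 0.119 with no overlap, and Trp53inp2 one of 0.16 with an SE of 0.155. Of the receptors, Stbd1, a glycogen receptor, had one of -0.38 with an SE of 0.165, Fam134b, a receptor for endoplasmic reticulum, one of 0.34 with an SE of 0.194, Tax1bp1 one of 0.12 with an SE of 0.110 with no overlap, and Pink1, the kinase that flags damaged mitochondria, one of 0.076 with an SE of 0.123.

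Further hydrolases included Pla2g15, a lysosomal phospholipase, at 0.31 with an SE of 0.149 with no overlap, Sgsh, a heparan sulfatase, at 0.53 with an SE of 0.274 and Smpd1, acid sphingomyelinase, at 0.071 with an SE of 0.140. The V-ATPase genes Atp6v0e, Atp6v0b and Atp6v1f were at -0.22 with an SE of 0.131, -0.23 with an SE of 0.160 and -0.19 with an SE of 0.142. Among regulators, Rragd, a Rag GTPase of nutrient sensing, was at 0.37 with an SE of 0.173, Mtor at 0.22 with an SE of 0.129 and Ppargc1a, a coactivator of mitochondrial genes, at 0.022 with an SE of 0.176. Fnip2, a partner of the lysosomal sensor folliculin, had the lowest value of the 153 genes, -0.57 with an SE of 0.354 (adjusted p = 0.923, edgeR). None of these passed after adjustment, and the smallest edgeR adjusted p among the 153 genes was that of Npc1.

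**Figure D5:**
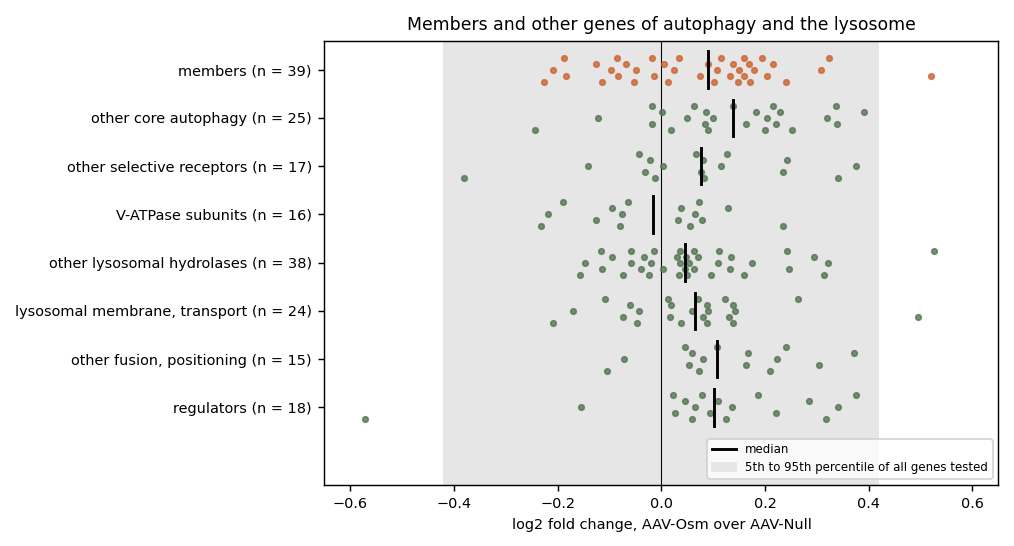
Log2 fold change of AAV-Osm over AAV-Null for the 39 members (orange) and for 7 lists of other autophagy and lysosome genes (green), each point a gene and each black bar a list's median, with the grey band from the 5th to the 95th percentile of all genes tested (-0.42 to 0.42). All points lie in the band except Pik3c3, Npc1 and Sgsh to its right and Fnip2 to its left.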

How the data were processed

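Heart apex RNA from 9 samples (4 AAV-Null, 5 AAV-Osm, by the treatment label) was sequenced, per the labels from a KAPA mRNA kit with paired reads of 75 bases. The submitters' processing notes name STAR 2.5.2b, featureCounts, Subread 1.5.1 and build mm10. For the annotation, the strand setting and multiply matching reads, the method is not given in the sources used here. Deposited by the authors was a table of raw counts, which were used unscaled as input. Its 4141 lines without a gene symbol were dropped. The exon length deposited with each gene served only to set levels per kilobase.

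Counts of all 13192 genes were tested with edgeR 4.0.16 (R 4.3.3) (quasi-likelihood F test, two-sided, robust dispersions, TMM scaling, filterByExpr), with group as the only term. P-values were adjusted by Benjamini-Hochberg over all genes, with a threshold of 0.05. SE is the log2 fold change over the root of F, and intervals use the test's degrees of freedom. Alternatives were other scalings, DESeq2 1.42.0, limma-voom (limma 3.58.1) with and without quality weights, dispersions that are not robust, other filters, each library left out and 2 pairs of libraries left out. Leaving out AAV-Null 3 and AAV-Null 4 kept only AAV-Null 1 and AAV-Null 2 as controls. The scripts were tested on simulated data. The smallest chi-square per degree of freedom between libraries was 6.52, for AAV-Null 1 and 2. AAV-Osm 2 and 3 followed at 9.68, and all other pairs were at 17.3 or more. Next came pairs across the groups, AAV-Null 1 with AAV-Osm 4 at 17.3 and AAV-Null 2 with AAV-Osm 4 at 18.6. AAV-Null 4 was at 93.3 from AAV-Null 1 and 98.1 from AAV-Null 2, so likeness between libraries did not follow the groups. AAV-Osm 4 had the smallest total count, 11841106, and the part of this in its values was not tested. These values cannot show that the libraries are separate mice, and each was treated as 1 sample.

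Members and lists were chosen with earlier results of these data known. Values in every library are given for the 10 members with the smallest p and the most abundant member of each role, and from each further list the 2 genes with the smallest p and the most abundant per length are named. Of the listed genes beyond these, those whose groups did not overlap and Fnip2 were singled out after their values were seen.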

Additional observations from a re-analysis of the deposited data

Results flagged for a closer look

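In 12 of 116 groups of 4 or 5 values 1 library lay far from the rest of its group, and 7 of these were among the 78 groups of single genes. The cutoff stands for about 1 in 20 only in independent groups of normally distributed values. These groups share the same 9 libraries, and the ratios reuse single genes, so the count cannot be set against that rate. Map1lc3a was at 1509 CPM in AAV-Null 4 and at 935 to 1018 CPM in the other AAV-Null libraries. Its ratio to Map1lc3b per length was 13.95 there and 7.27 to 7.70 in the others. Bnip3l was also high in AAV-Null 4, at 104 against 77.8 to 81.6 CPM. In the same library Alas2, the erythroid marker, was at 216 against 109.7 to 125 CPM. The sum of 3 skeletal muscle markers there was 5.87 against 2.47 to 2.86 CPM. Gaa was low there, at 99.6 against 117 to 121 CPM. AAV-Osm 5 had the highest Fundc1 of its group, 23.1 against 12.2 to 14.8 CPM. Rab7 was also highest there, at 233 against 188 to 196 CPM. Gabarapl2 was low in AAV-Osm 4, at 44.5 against 60.2 to 64.2 CPM in the rest of that group. AAV-Null 1 and 2 were lower still, at 36.0 and 39.9 CPM. The ratio of Gabarapl1 to Gabarapl2 in AAV-Osm 4 was 2.89 against 1.80 to 2.05 in the rest of its group, and 2.72 and 2.39 in AAV-Null 1 and 2. AAV-Osm 4 thus stood apart within its group only. Wipi1 was low in AAV-Osm 1, at 141 against 178 to 186 CPM. The ratio of Gabarapl1 to Gabarap was 0.366 in AAV-Null 1 and 0.319 to 0.327 in the other AAV-Null libraries.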

How the results depend on the processing

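In all 20 alternatives 0 of the 39 genes passed, and the scalings left the median of all genes between -0.022 and 0.014. Atg14 has no value with a mean of at least 10 CPM, which left 38 members. Among all genes 16 were called, 53 with DESeq2, 170 with limma-voom with quality weights, 5 with the stricter filter and 4 to 11 with 1 library left out, and the cause was not tested. The lowest counts were 4 without AAV-Null 2 or AAV-Osm 2 and 5 without AAV-Null 1, with 6, 7, 8, 9, 10 and 11 called without AAV-Osm 1, AAV-Osm 3, AAV-Osm 5, AAV-Osm 4, AAV-Null 4 and AAV-Null 3. Of the further 153 genes 1 (Npc1) passed with quality weights. Of the members 19 kept their sign in every alternative and 20 did not, none of them called under either sign, and the causes were not tested.

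Log2 fold changes that turned sign with total counts as the scaling were Atg9a -0.029, Wipi1 -0.0092, Lamp2 -2.9e-05, Ctsl -0.020 and Ppargc1a -0.031, and with limma-voom Lamp2 -0.014 and Ctsl -0.022. With quality weights they were Ulk1 -0.054, Atg9a -0.089, Wipi1 -0.029, Atg4d 0.11, Atg7 0.090, Atg16l1 0.16, Gabarap 0.040, Sqstm1 -0.0043, Nbr1 -0.084, Bnip3 -0.38, Bnip3l 0.061, Lamp2 -0.41, Ctsl -0.32 and Ppargc1a -0.16. Without AAV-Null 4 and AAV-Osm 5 they were Atg9a -0.064, Wipi1 -0.035, Atg4d 0.060, Atg7 0.13, Atg16l1 0.040, Map1lc3a 0.089, Sqstm1 -0.012, Nbr1 -0.028, Bnip3 -0.23, Bnip3l 0.13, Lamp2 -0.33, Ctsl -0.24 and Ppargc1a -0.036. With AAV-Null 3 and AAV-Null 4 both left out they were Ulk1 -0.020, Atg2a -0.041, Atg9a -0.11, Wipi1 -0.085, Atg4d 0.091, Atg5 0.011, Atg7 0.047, Atg16l1 0.22, Gabarap 0.11, Nbr1 -0.067, Bnip3 -0.19, Bnip3l 0.11, Lamp2 -0.28, Ctsl -0.15 and Ppargc1a -0.20. With 1 library left out at a time the ranges that crossed 0 were Atg9a -0.060 to 0.069, Wipi1 -0.025 to 0.10, Atg7 -0.20 to 0.018, Atg16l1 -0.14 to 0.040, Map1lc3b -0.096 to 0.037, Gabarapl2 -0.068 to 0.26, Bnip3 -0.077 to 0.26, Bnip3l -0.061 to 0.087, Fundc1 -0.24 to 0.026, Lamp2 -0.19 to 0.18, Ctsl -0.13 to 0.11, Vps18 -0.079 to 0.19, Ppargc1a -0.11 to 0.12 and Smpd1 -0.0071 to 0.14.

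No paired analysis was possible because the labels carry no replicate numbers that the groups share. With 4 and 5 libraries, the intervals of 6 of the 39 members still held changes larger than 1.5-fold.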

Other observations

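Lamp1 and Lamp2, the glycoproteins of the lysosomal membrane, did not keep a fixed proportion between hearts. Their ratio per length was 9.03, 9.28, 17.7 and 20.8 over AAV-Null 1 to 4, then 15.1, 18.9, 25.4, 12.2 and 8.83 over AAV-Osm 1 to 5. AAV-Null 1 and 2 and AAV-Osm 5 were low and AAV-Osm 3 was highest, so the spread lay within both groups. The proteases Ctsd and Ctsb had ratios of 10.5, 10.1, 9.87 and 11.3 over AAV-Null 1 to 4, then 6.17, 8.36, 11.5, 12.04 and 7.88 over AAV-Osm 1 to 5, and all 4 AAV-Null libraries lay within the AAV-Osm range.

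The remaining marker lists had the following summed levels, each with an adjusted exact permutation p of 0.698 or more. Fibroblast markers (7 of 7 in the table) were between 2045 and 3192 CPM among AAV-Null and between 1613 and 2628 CPM among AAV-Osm libraries, and endothelial markers (6 of 6) between 446 and 523 CPM among AAV-Null and between 423 and 553 CPM among AAV-Osm libraries. Smooth muscle markers (4 of 4) were between 89.9 and 191 CPM among AAV-Null and between 107 and 129.98 CPM among AAV-Osm libraries, with AAV-Null 4 lowest. Adipocyte markers (2 of 7) were between 519.7 and 864 CPM among AAV-Null and between 491 and 740.3 CPM among AAV-Osm libraries. Liver markers (7 of 7) were between 4.16 and 147 CPM among AAV-Null and between 2.62 and 49.2 CPM among AAV-Osm libraries. Neutrophil markers (2 of 4) were between 4.01 and 9.26 CPM among AAV-Null and between 3.05 and 5.66 CPM among AAV-Osm libraries, and Schwann cell markers (2 of 3) between 8.94 and 11.5 CPM among AAV-Null and between 7.03 and 11.1 CPM among AAV-Osm libraries. Of the 4 lung markers 0 were in the table. The part of these markers in the members' values was not tested.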
